A study of Rattus norvegicus with 6 samples.

Results

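The genes of the nuclear pore and of nuclear transport were examined in dorsal root ganglion (DRG) neurons of spontaneously hypertensive rats (SHRs), an inbred model of essential hypertension. Membership followed from gene symbol and gene type. Members were all protein-coding rows whose symbol begins with Nup and a digit, Kpna, Kpnb, Xpo, Ipo or Tnpo, together with Ran, Rangap1, Ranbp1, Ranbp2, Rcc1, Tpr, Ndc1, Nxf1, Nxt1 and Cse1l. Of 25689 genes in the count table, 56 rows with 55 different symbols were members, since Nup214 was listed under 2 Ensembl identifiers. Of these, 54 passed the filter on low counts, and Nup62cl and Kpna7 did not, with at most 2 counts in any sample.

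The rats of both groups were wild-type SHRs with a labelled age of 6 to 8 weeks, which is younger than the age at purchase given in the study's methods. In 3 samples the perirenal adipose tissue, the fat around both kidneys, had been removed surgically (perirenal adipose tissue ablation, PRATA), and 3 samples came from sham-operated rats. Neurons of the L1-L2 DRGs, which send sensory fibers to this fat, were isolated 4 weeks after the operation by enzymatic digestion and slower adhesion to the dish over several hours of culture, and their total RNA was sequenced. The sources used here do not say whether each sample came from 1 rat or from several, so the p-values below measure the spread between these samples.

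The nuclear pore complex is the only gate for large molecules between nucleus and cytoplasm. Its stacked rings are built from scaffold nucleoporins, and nucleoporins rich in phenylalanine-glycine repeats fill the channel. Cargo is carried through the channel by soluble receptors, importins inward and exportins outward, and the small GTPase Ran gives the direction, since its GTP form is kept high in the nucleus by Rcc1 and low in the cytoplasm by Rangap1. In neurons these receptors also work far from the nucleus: importins on axons carry injury signals back to the cell body of sensory neurons. Messenger RNA leaves largely by the Nxf1 and Nxt1 receptor, while Xpot carries tRNA and Xpo5 carries microRNA precursors.

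Sham replicate 2 was the shallowest library with 5892967 counts and sham replicate 1 the deepest with 15226952, and the members together took between 0.362% and 0.552% of them. Levels are given as CPM, the counts scaled to a common library size after TMM scaling, edgeR's correction for library composition, and the floor set by 3 counts was 0.207 to 0.468 CPM, for counting error only. PRATA replicate 3 and sham replicate 1 stood apart from the other 4 samples in that the 7SL RNA gene Rn7sl1 was their most abundant row, with 5.40% and 5.63% of counts. Of 13 neuron markers, 13 were detected in every sample, and all 13 had a positive log2 fold change after PRATA, 5 of them at an unadjusted p under 0.05. Summed over the list, neuron markers were at 12681 to 19752 CPM after PRATA and 8809 to 13165 CPM in the sham group, with overlapping groups. The 5 satellite glia markers had negative log2 fold changes, none at an unadjusted p under 0.05, with sums of 3027 to 5746 CPM after PRATA and 3978 to 7905 CPM in the sham group. The markers of dividing cells summed to 15.5 to 26.0 CPM after PRATA and 9.73 to 27.3 CPM in the sham group. Sums for Schwann cells (936 to 1711 against 1009 to 1295 CPM), fibroblasts (323 to 1975 against 906 to 1818 CPM), macrophages (15 to 57.3 against 18.2 to 42.4 CPM), endothelium (50.3 to 116 against 21.1 to 124 CPM) and mural cells (148 to 187 against 93.5 to 227 CPM) overlapped as well. Of the 6 Schwann cell markers, 2 had an unadjusted edgeR p under 0.05 and lay in opposite directions without overlap between the groups. Their log2 fold changes were -1.63 for Sox10 and 1.39 for Prx. Of the 5 endothelial markers tested 1, Vwf, had such a p, at a log2 fold change of 1.47 with overlapping groups. Of all genes, 10.1% were lower and 8.19% higher at that threshold. The part of these shifts in the results below was not tested, and in bulk RNA fewer cells of a type and less RNA per cell cannot be told apart.

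Most nuclear pore and transport genes were at a lower level after PRATA than after the sham operation. Of the 54 members tested, 44 (81.5%) had a log2 fold change below 0, against 48.0% of all 14919 genes tested, and their median log2 fold change was -0.38, against 0.02 over all genes. None of the members passed a Benjamini-Hochberg adjusted p of 0.05, taken over all genes from the quasi-likelihood test of edgeR, and neither did any other gene (0% of all genes). The smallest adjusted p among the members was 0.167. At an unadjusted p under 0.05, 21 members (38.9%) were lower, against 10.1% of all genes, and 0 members were higher, against 8.19% of all genes. In 27 members (50%) all PRATA samples were under the sham range, against 11.2% of all genes, and these 27 had a median log2 fold change of -0.60. In 2 members all PRATA samples were over the sham range, against 11.6% of all genes. Only Nxt1 had a log2 fold change beyond 1 in size.

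**Figure D1:**
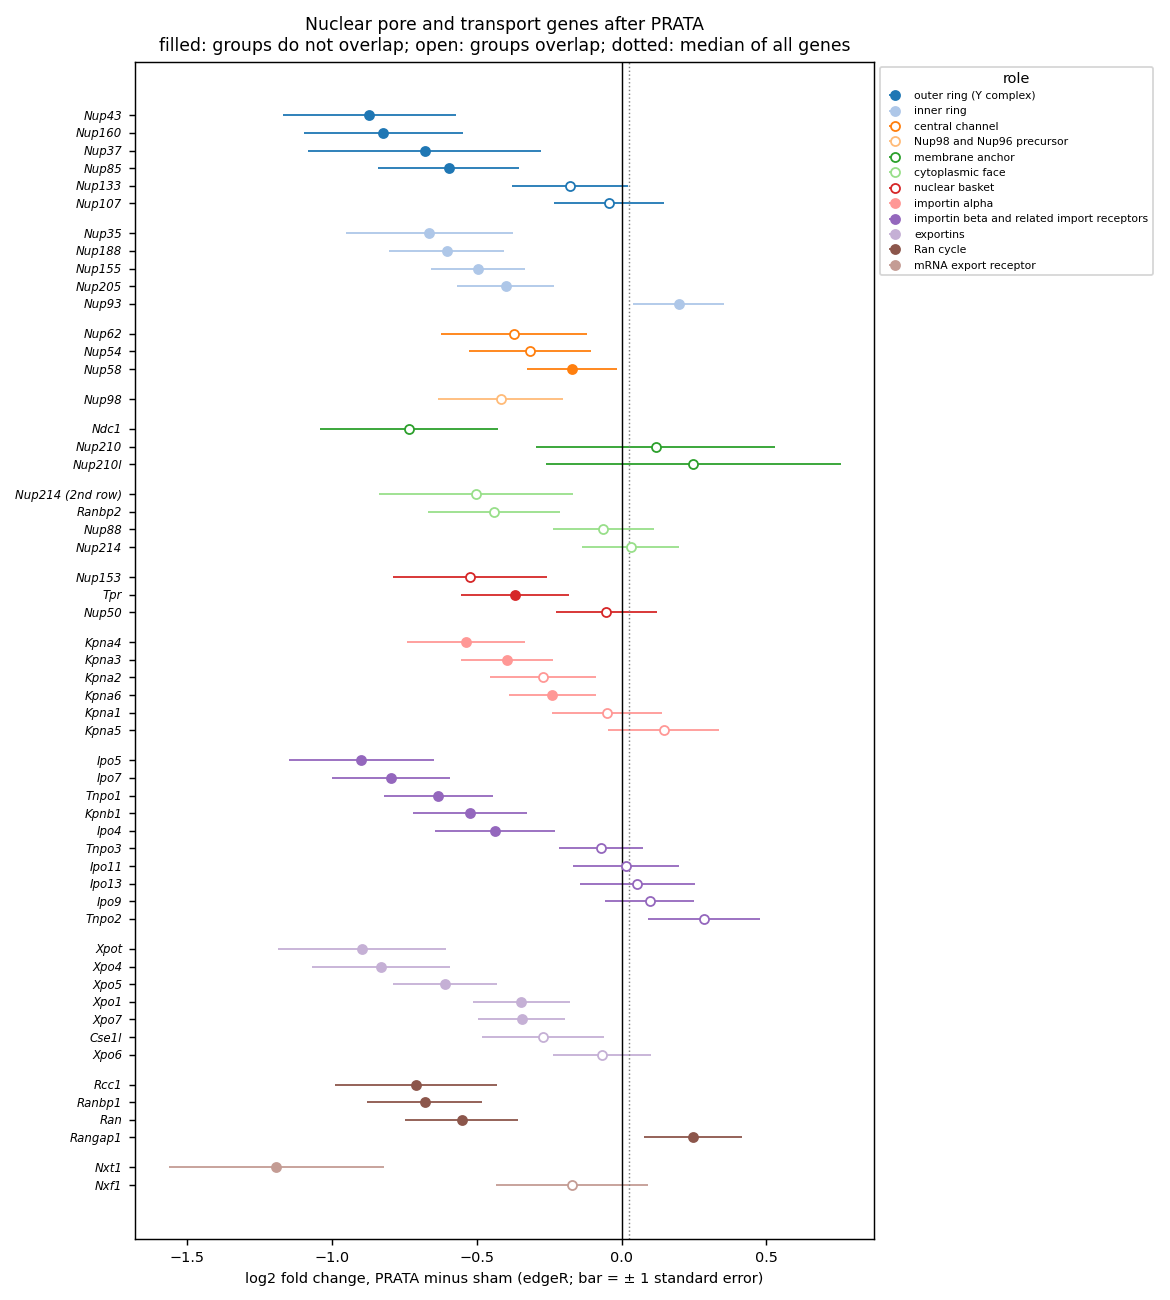
Log2 fold change (PRATA minus sham, x axis) of the 54 members tested with its standard error, ordered by role in the pore or in transport. Filled points mark members whose groups do not overlap, and 27 of these lie below 0 while 2, Nup93 and Rangap1, lie above it.

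The smallest p-values among the members were those of Ipo7 and Ipo5, import receptors of the importin beta family. Receptors of this family wrap around their cargo and release it when Ran in its GTP form binds. Ipo7 (ENSRNOG00000010427), which carries ribosomal proteins and signalling proteins into the nucleus, was at 121, 117 and 139 CPM in PRATA replicates 1, 2 and 3 and at 221, 171 and 262 CPM in sham replicates 1, 2 and 3. The highest PRATA sample thus lay below the lowest sham sample, and the log2 fold change was -0.80 (standard error, SE, 0.20, edgeR adjusted p = 0.167). Ipo5 (ENSRNOG00000010989), another carrier of ribosomal proteins and of histones, was at 300.2, 307 and 284 CPM after PRATA and at 646, 371 and 643 CPM in the sham group. Sham replicate 2 stood well below the other sham samples here but still above all PRATA samples, and the log2 fold change was -0.90 (SE 0.25, edgeR adjusted p = 0.171). Tnpo1 (ENSRNOG00000014999), transportin 1, which imports RNA-binding proteins such as hnRNP A1, was at 92.3, 93.4 and 107 CPM after PRATA and at 158, 120.5 and 175 CPM in the sham group (log2 fold change -0.63, SE 0.19, edgeR adjusted p = 0.176). Kpnb1 (ENSRNOG00000009275), importin beta 1 itself, which works with importin alpha on classical nuclear localization signals, was at 255, 236 and 265 CPM after PRATA and at 362, 301 and 421 CPM in the sham group (log2 fold change -0.52, SE 0.20, edgeR adjusted p = 0.227).

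The family was not uniform. Ipo4 was the fifth of the 10 import receptors with all PRATA samples below all sham samples (11.2% of all genes). Its log2 fold change was -0.44, or -0.23 without sham replicate 3. The other 5 overlapped between the groups, with log2 fold changes of -0.07 for Tnpo3, 0.02 for Ipo11, 0.05 for Ipo13, 0.10 for Ipo9 and 0.28 for Tnpo2. Tnpo2, the close paralog of Tnpo1, was at 140, 126 and 185 CPM after PRATA and at 119, 136 and 116 CPM in the sham group, so its spread after PRATA exceeded the distance between the groups. Its log2 fold change was 0.11 without PRATA replicate 3 and 0.072 without the pair of PRATA replicate 3 and sham replicate 1. Over all 10 import receptors 4 were lower at an unadjusted p under 0.05 (10.1% of all genes), and the median log2 fold change was -0.25.

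Among the importin alpha genes, whose products are the adaptors that read the classical signal for Kpnb1, Kpna4 and Kpna3 had the smallest p-values, and neither passed the adjusted p. Kpna4 (ENSRNOG00000010768) was at 85.7, 76.4 and 83.0 CPM after PRATA and at 125, 88.0 and 142 CPM in the sham group (log2 fold change -0.54, SE 0.20, edgeR adjusted p = 0.231). Kpna3 (ENSRNOG00000014945) was at 36.4, 31.7 and 36.2 CPM after PRATA and at 42.7, 47.1 and 47.4 CPM in the sham group (log2 fold change -0.40, SE 0.16, edgeR adjusted p = 0.245). In both genes all PRATA samples lay below all sham samples (11.2% of all genes), as in Kpna6 at a log2 fold change of -0.24. Kpna2, often high in dividing cells, was at 23.5, 22.2 and 21.0 CPM after PRATA and at 23.2, 32.0 and 25.4 CPM in the sham group, with overlapping groups and a log2 fold change of -0.27 (SE 0.18), or -0.13 without sham replicate 2. The log2 fold change was -0.05 for Kpna1 and 0.15 for Kpna5. Kpna7, a form known from oocytes, was close to absent at 0 to 2 counts per sample.

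All 7 exportins had negative log2 fold changes (48.0% of all genes), and 5 of them lay under the sham range (11.2% of all genes). Xpo4 (ENSRNOG00000010137), an exporter of the translation factor eIF5A, was at 36.4, 38.3 and 36.4 CPM after PRATA and at 76.5, 43.2 and 77.5 CPM in the sham group (log2 fold change -0.83, SE 0.24, edgeR adjusted p = 0.175). Xpo5 (ENSRNOG00000019085), the exporter of microRNA precursors, was at 43.0, 45.7 and 53.3 CPM after PRATA and at 65.3, 66.2 and 85.2 CPM in the sham group (log2 fold change -0.61, SE 0.18, edgeR adjusted p = 0.175). Xpot (ENSRNOG00000007088), the exporter of tRNA, was almost level among the PRATA samples at 72.2, 73.4 and 72.7 CPM but varied among the sham samples at 154, 75.7 and 175 CPM. Sham replicate 2 thus came within a few CPM of the PRATA level, and the log2 fold change of Xpot was -0.90 (SE 0.29, edgeR adjusted p = 0.194). Xpo1 (ENSRNOG00000009935), also known as CRM1, the general exporter of proteins with a leucine-rich signal, was at 88.6, 82.1 and 82.7 CPM after PRATA and at 94.8, 102 and 125 CPM in the sham group (log2 fold change -0.35, SE 0.17, edgeR adjusted p = 0.310). Without sham replicate 3 the log2 fold change of Xpo1 was -0.21. Xpo7 also separated, at a log2 fold change of -0.34. Cse1l, which returns importin alpha to the cytoplasm, was at 29.6, 24.9 and 32.4 CPM after PRATA and at 27.6, 34.5 and 42.8 CPM in the sham group, with overlapping groups and a log2 fold change of -0.27 (SE 0.21). This value was -0.09 without sham replicate 3, -0.44 without sham replicate 1 and -0.52 without the pair. For Xpo6, the exporter of actin, it was -0.07.

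The members of the Ran cycle did not all lie in the same direction. Ran (ENSRNOG00000000938) was at 134, 131 and 143 CPM after PRATA and at 172, 177 and 248 CPM in the sham group (log2 fold change -0.55, SE 0.19, edgeR adjusted p = 0.216), which was -0.35 without sham replicate 3. Ranbp1 (ENSRNOG00000001884), a cytoplasmic partner that helps Rangap1 to act on Ran, was at 63.0, 62.0 and 65.9 CPM after PRATA and at 88.1, 87.3 and 130.3 CPM in the sham group (log2 fold change -0.68, SE 0.20, edgeR adjusted p = 0.175). Rcc1 (ENSRNOG00000050106), the chromatin-bound exchange factor that loads Ran with GTP, had few counts (24 to 72 per sample) and was at 3.10, 3.43 and 3.95 CPM after PRATA and at 4.97, 5.93 and 6.33 CPM in the sham group (log2 fold change -0.71, SE 0.28, edgeR adjusted p = 0.240). In these 3 genes all PRATA samples lay below all sham samples (11.2% of all genes). Rangap1 (ENSRNOG00000031789), the cytoplasmic activator of GTP hydrolysis by Ran, was instead at 182, 163 and 172 CPM after PRATA and at 125, 153 and 159 CPM in the sham group. Each PRATA sample was above each sham sample, but by little, and the log2 fold change of 0.25 (SE 0.17, edgeR adjusted p = 0.457) was not distinguished from the spread between replicates. It was 0.12 without sham replicate 1 and 0.14 without the pair.

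**Figure D2:**
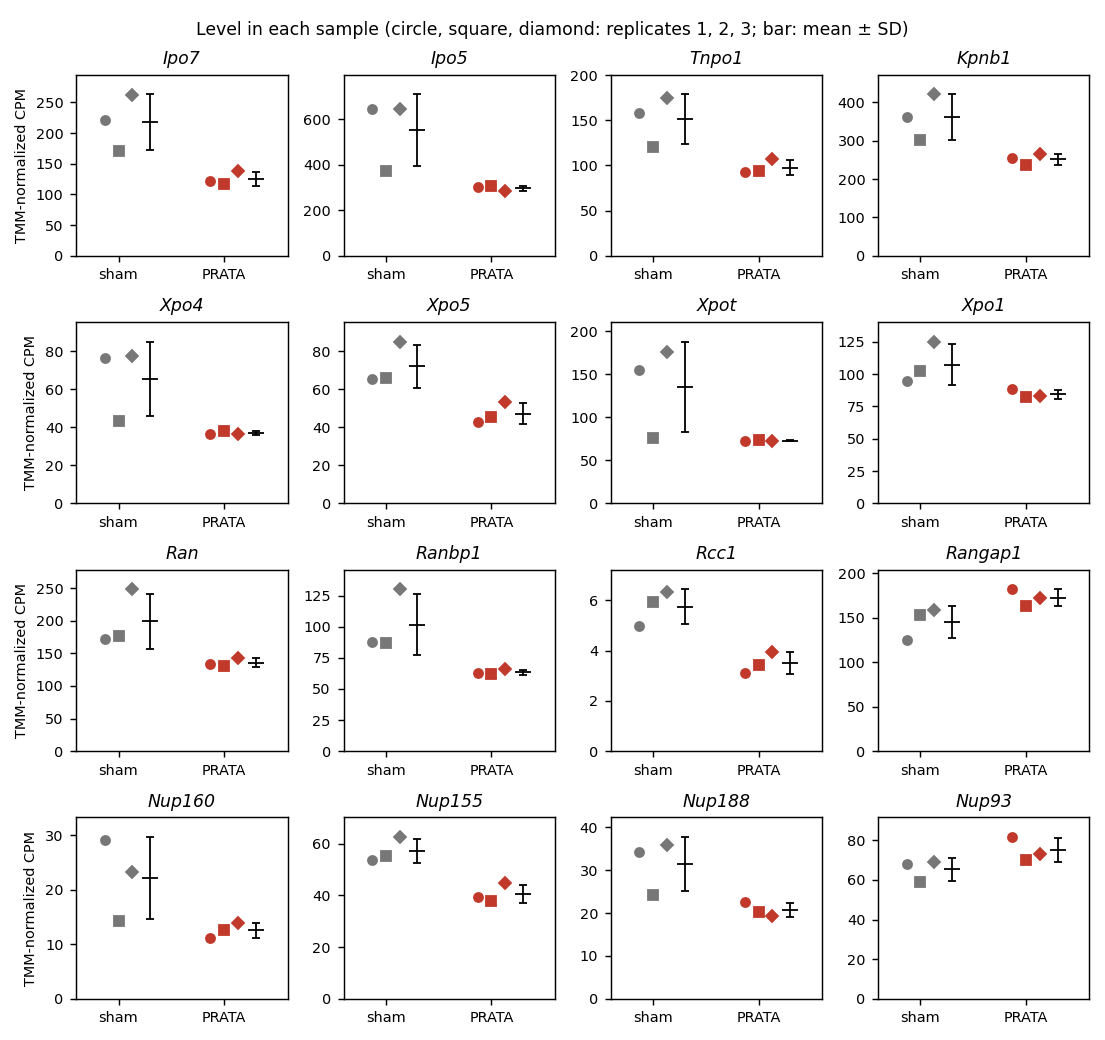
TMM-normalized CPM (y axis, from 0) of 16 members in each of the 3 sham (grey) and 3 PRATA (red) samples, with mean ± SD as black bars and the replicate given by the symbol. Sham replicate 2 (square) lies close to the PRATA samples for Xpot and Nup160, whereas Rangap1 and Nup93 are higher in every PRATA sample.

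The mRNA export receptor is made of 2 subunits, whose difference from each other was not tested. Nxt1 (ENSRNOG00000004700), the small partner, was at 2.32, 2.71 and 2.93 CPM after PRATA and at 7.95, 3.43 and 6.71 CPM in the sham group. These levels rest on 18 to 115 counts per sample, and the log2 fold change of -1.19 (SE 0.37, edgeR adjusted p = 0.187) was the largest in size among the members. Nxf1 (ENSRNOG00000019069), the subunit that binds the mRNA, was at 71.8, 79.3 and 67.1 CPM after PRATA and at 113, 53.4 and 79.2 CPM in the sham group, with overlapping groups and a log2 fold change of -0.17 (SE 0.26). Without sham replicate 1 its log2 fold change was 0.11, without sham replicate 2 it was -0.40, and without the pair it was 0.17.

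The promoters of members with like differences can be set side by side. They are shown for the import receptors with the smallest p-values (Ipo7 and Ipo5), for the member with the largest fold change (Nxt1) and for the member of the Ran cycle that lay in the other direction (Rangap1). Each runs 5′ to 3′ from 250 bases before to 50 bases after the start of the gene in RefSeq (build GRCr8), and capitals mark matches on either strand to the E-box CACGTG, the ETS motif CCGGAAG, the CCAAT box, the TATA box TATAAA or the NRF1 motif.
Ipo7, chr1:173497222-173497521, plus strand: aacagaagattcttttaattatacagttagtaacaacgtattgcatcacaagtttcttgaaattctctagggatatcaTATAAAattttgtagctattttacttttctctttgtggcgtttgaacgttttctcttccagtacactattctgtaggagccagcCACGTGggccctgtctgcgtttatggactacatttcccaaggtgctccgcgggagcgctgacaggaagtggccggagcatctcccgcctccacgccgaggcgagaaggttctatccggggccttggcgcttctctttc
Ipo5, chr15:104411998-104412297, plus strand: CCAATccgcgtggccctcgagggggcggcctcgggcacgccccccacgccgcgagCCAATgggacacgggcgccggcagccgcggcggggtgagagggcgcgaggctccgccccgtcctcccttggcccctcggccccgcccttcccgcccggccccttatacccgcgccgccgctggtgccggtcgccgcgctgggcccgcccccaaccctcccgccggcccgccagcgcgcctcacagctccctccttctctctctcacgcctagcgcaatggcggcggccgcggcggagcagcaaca
Nxt1, chr3:156561871-156562170, plus strand: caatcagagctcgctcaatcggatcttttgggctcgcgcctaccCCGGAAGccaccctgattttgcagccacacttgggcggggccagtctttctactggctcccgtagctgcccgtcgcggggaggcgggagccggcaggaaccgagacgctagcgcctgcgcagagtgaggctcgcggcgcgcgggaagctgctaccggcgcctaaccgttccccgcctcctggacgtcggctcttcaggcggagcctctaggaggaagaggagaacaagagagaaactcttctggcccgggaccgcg
Rangap1, chr7:115130515-115130814, minus strand: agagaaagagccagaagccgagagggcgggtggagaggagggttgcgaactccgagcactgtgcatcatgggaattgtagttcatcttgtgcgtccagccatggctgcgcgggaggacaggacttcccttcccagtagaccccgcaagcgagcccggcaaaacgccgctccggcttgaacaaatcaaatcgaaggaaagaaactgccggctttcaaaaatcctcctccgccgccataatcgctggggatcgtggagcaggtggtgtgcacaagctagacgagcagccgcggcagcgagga
Ipo7 holds an E-box and, far upstream of the start, TATAAA. Ipo5 holds 2 CCAAT boxes and Nxt1 an ETS motif, while Rangap1 holds none of the 5 motifs. Of the 55 symbols, 48 had a promoter in the RefSeq table. An E-box was found in 4 of the 23 promoters (17.4%) of members with all PRATA samples below all sham samples and in 3 of 23 (13%) of the other members tested, against 6.65% of all 27457 promoters and 9.12% of those of genes tested. The ETS motif was found in 17.4% and 13% of the same promoters, against 9.22% of all promoters and 16.5% of those of genes tested, the CCAAT box in 39.1% and 56.5%, against 37.7% and 37.2%, and TATAAA in 4.35% and 8.70%, against 14.3% and 6.95%. The NRF1 motif was found in 1 member, Xpo5, which holds 2 matches, against 0.932% of all promoters and 1.77% of those of genes tested. Each motif was counted on its own, so matches may overlap. They describe the letters of the window, and no difference between the sets was tested.

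Within the pore, 8 of the 11 scaffold ring members tested lay under the sham range, against 11.2% of all genes. The outer ring is built from Y-shaped complexes that coat the membrane, and all 6 of its members had negative log2 fold changes, 4 of them with groups that did not overlap. Nup160 (ENSRNOG00000028215), at the branch of the Y, was at 11.2, 12.6 and 14.0 CPM after PRATA and at 29.1, 14.2 and 23.3 CPM in the sham group (log2 fold change -0.82, SE 0.27, edgeR adjusted p = 0.1997). The lowest sham sample was only just above the highest PRATA sample. Nup43 (ENSRNOG00000049505), a small subunit of the same complex, was at 3.36, 4.70 and 3.72 CPM after PRATA and at 6.77, 5.62 and 9.16 CPM in the sham group (log2 fold change -0.87, SE 0.30, edgeR adjusted p = 0.209). Nup85 (ENSRNOG00000003673), in an arm of the Y, was at 9.81, 6.29 and 7.83 CPM after PRATA and at 11.2, 11.2 and 13.6 CPM in the sham group (log2 fold change -0.60, SE 0.24, edgeR adjusted p = 0.252). Nup37 had a log2 fold change of -0.68 (SE 0.40), or -0.32 without sham replicate 3, whereas Nup133 and Nup107, which form the stem of the Y, overlapped between the groups at -0.18 and -0.04.

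In the inner ring, which anchors the pore to the membrane and holds the channel nucleoporins, 4 of 5 members lay below the sham range (11.2% of all genes). The fifth lay above it (11.6% of all genes). Nup155 (ENSRNOG00000013411) was at 39.4, 37.8 and 44.6 CPM after PRATA and at 53.6, 55.3 and 62.6 CPM in the sham group (log2 fold change -0.49, SE 0.16, edgeR adjusted p = 0.196). Nup188 (ENSRNOG00000025185), one of the pair of large scaffold proteins of this ring, was at 22.6, 20.3 and 19.4 CPM after PRATA and at 34.3, 24.2 and 35.9 CPM in the sham group (log2 fold change -0.60, SE 0.20, edgeR adjusted p = 0.197). Nup205 (ENSRNOG00000010852), its paralog, was at 36.7, 33.1 and 37.9 CPM after PRATA and at 49.6, 41.4 and 51.0 CPM in the sham group (log2 fold change -0.40, SE 0.17, edgeR adjusted p = 0.259). Both paralogs were thus lower in all 3 PRATA samples, and so was Nup35 at a log2 fold change of -0.66, or -0.33 without sham replicate 3. Nup93, the linker that ties the ring to the channel, was at 81.7, 70.1 and 73.1 CPM after PRATA and at 68.1, 58.8 and 69.1 CPM in the sham group. Its log2 fold change of 0.20 (SE 0.16, edgeR adjusted p = 0.526) rested on a small gap between the nearest samples, and the groups overlapped with DESeq2's size factors. The log2 fold change of Nup93 was 0.11 without PRATA replicate 1 and 0.13 without sham replicate 2.

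The channel nucleoporins, which carry the phenylalanine-glycine repeats, gave no unadjusted p under 0.05. Nup62 was at 39.5, 44.1 and 49.7 CPM after PRATA and at 78.5, 40.9 and 52.7 CPM in the sham group (log2 fold change -0.37, SE 0.25). Its partner Nup54 was at 25.7, 30.8 and 29.6 CPM after PRATA and at 44.3, 27.6 and 35.0 CPM in the sham group (log2 fold change -0.32, SE 0.21). In both genes sham replicate 2 lay within the PRATA range and sham replicate 1 was highest. Without sham replicate 1 the log2 fold change was -0.098 for Nup62 and -0.15 for Nup54, and without the pair it was -0.17 and -0.16. Without sham replicate 2, that of Nup62 was -0.56. Nup58, the third subunit of this complex, was at 28.1, 25.2 and 29.4 CPM after PRATA and at 31.3, 30.4 and 31.4 CPM in the sham group, so that the groups did not overlap although the log2 fold change was only -0.17 (SE 0.16), or -0.11 without PRATA replicate 2. Nup98, whose gene also encodes the scaffold protein Nup96 as part of one precursor, was at 86.2, 93.8 and 95.9 CPM after PRATA and at 154, 89.0 and 125 CPM in the sham group (log2 fold change -0.42, SE 0.22, edgeR adjusted p = 0.336), which was -0.24 without sham replicate 1 and -0.26 without the pair. Nup62cl, a gene related to Nup62, had 0 or 1 count in each sample.

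The 2 faces of the pore showed the same overlap. Ranbp2, the giant protein of the cytoplasmic filaments, was at 398, 388 and 412 CPM after PRATA and at 642, 397 and 587 CPM in the sham group (log2 fold change -0.44, SE 0.23, edgeR adjusted p = 0.334). Sham replicate 2 again lay within the PRATA range. On the nuclear side, Nup153 of the basket was at 151, 173 and 158 CPM after PRATA and at 318, 153 and 220 CPM in the sham group (log2 fold change -0.52, SE 0.27, edgeR adjusted p = 0.330). Sham replicate 1 was highest, and the log2 fold change of Nup153 was -0.24 without it and -0.22 without the pair. Tpr, the coiled-coil protein that forms the basket's struts, did separate, at 245, 261 and 223 CPM after PRATA and at 304, 278 and 358 CPM in the sham group (log2 fold change -0.37, SE 0.19, edgeR adjusted p = 0.328). Log2 fold changes were -0.05 for Nup50, -0.06 for Nup88 and 0.03 for the larger Nup214 row (ENSRNOG00000023393), with overlapping groups. The second Nup214 row (ENSRNOG00000047244), with 19 to 75 counts per sample, was at -0.50 (SE 0.33), and reads of the same gene could have been split between the rows.

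The membrane anchors did not share a direction. Ndc1 (ENSRNOG00000010620), which holds the pore in the nuclear envelope, was at 6.45, 10.04 and 13.2 CPM after PRATA and at 18.7, 12.0 and 18.8 CPM in the sham group (log2 fold change -0.73, SE 0.31, edgeR adjusted p = 0.260) with overlapping groups. Nup210 was at 7.74, 5.58 and 7.67 CPM after PRATA and at 4.35, 11.1 and 4.25 CPM in the sham group, so that a single sham sample held both its highest level and the group's spread. Its log2 fold change was 0.12 (SE 0.41). Without sham replicate 2 Nup210 was the only member higher after PRATA at an unadjusted p under 0.05, against 13.4% of all genes. Nup210l, a relative known from testis, was at 0.25 (SE 0.51).

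**Figure D3:**
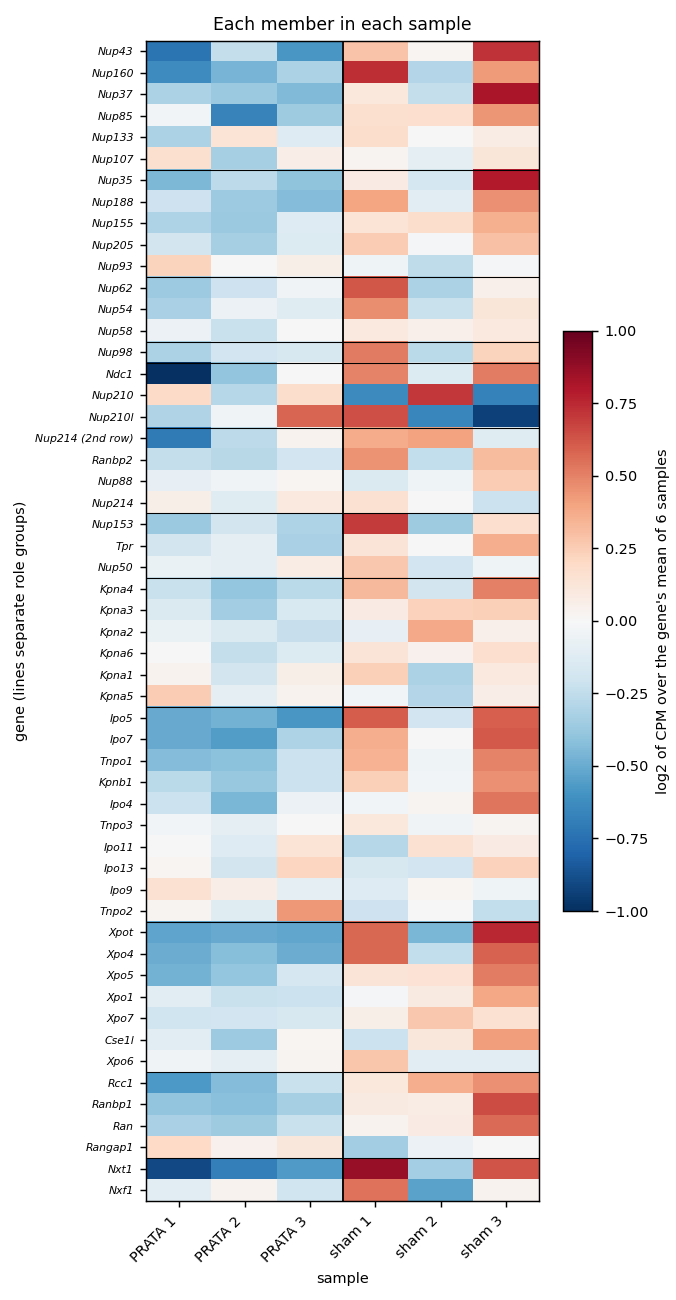
Log2 of each member's CPM over its own mean of the 6 samples (color, from -1 to 1), with members in rows by role and samples in columns. Sham replicates 1 and 3 hold the highest level of 16 and 27 members, while sham replicate 2 holds that of 5 and is the lowest sham sample for 33.

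Over all members, sham replicate 2 was the sham sample whose median was nearest to PRATA. It was the lowest of the sham samples for 33 of the 54 members, and it also had the fewest counts of all samples. The median member, centered on its mean over the samples, was at -0.18, -0.21 and -0.13 on the log2 scale in PRATA replicates 1, 2 and 3 and at 0.17, -0.02 and 0.26 in sham replicates 1, 2 and 3. The groups thus did not overlap in this median, and the PRATA samples lay closer to each other than the sham samples did. Of the 25 pore rows tested, 10 lay under the sham range (11.2% of all genes) and 8 were lower at an unadjusted p under 0.05 (10.1% of all genes), with a median log2 fold change of -0.40. Of the 29 rows for soluble receptors, the Ran cycle and mRNA export, 17 lay under the sham range and 13 were lower at an unadjusted p under 0.05, against the same shares of all genes, with a median of -0.35.

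Genes of the same machinery that the symbols above leave out were counted from a list chosen by function, with earlier results known. Of 39 such genes 34 were in the table and 33 were tested: 7 were lower at an unadjusted p under 0.05 (10.1% of all genes), 0 were higher (8.19% of all genes), and in 7 all PRATA samples were under the sham range (11.2% of all genes). Their median log2 fold change was -0.26. Ddx39a (ENSRNOG00000004373), an RNA helicase that loads export factors on mRNA, was at 16.1, 19.7 and 21.4 CPM after PRATA and at 35.4, 23.9 and 48.5 CPM in the sham group (log2 fold change -0.91, SE 0.27, edgeR adjusted p = 0.175). Nmd3 (ENSRNOG00000009310), the adaptor by which Xpo1 exports the large ribosomal subunit, was at 23.8, 19.4 and 21.5 CPM after PRATA and at 43.4, 25.1 and 42.8 CPM in the sham group (log2 fold change -0.79, SE 0.24, edgeR adjusted p = 0.179). Alyref (ENSRNOG00000036687), the adaptor that recruits Nxf1, was at 25.7, 26.6 and 23.0 CPM after PRATA and at 43.9, 28.3 and 40.5 CPM in the sham group (log2 fold change -0.59, SE 0.20, edgeR adjusted p = 0.216). In all 3 the groups did not overlap. The genes of the list with positive log2 fold changes and the smallest p-values were the nucleoporin gene Aaas at 0.51 (SE 0.30), the mRNA export factor Gle1 at 0.18 (SE 0.17) and Thoc3 at 0.12 (SE 0.19), and each had overlapping groups. Without sham replicate 1 the log2 fold change of Aaas was 0.29, and without sham replicate 3 that of Gle1 was 0.079. Without sham replicate 2, Aaas was the only gene of the list higher at an unadjusted p under 0.05, against 13.4% of all genes.

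The choice of test and of samples decided whether single members passed an adjusted p under 0.05. With DESeq2, Ipo5, Ipo7, Tnpo1 and Xpo4 passed downward (4 of the 51 members to which it gave an adjusted p, 7.84%, against 4.29% of all genes with one). Limma voom with sample quality weights added Nup160, Nxt1, Ranbp1, Xpo5 and Xpot to these (9 members, against 4.87% of all genes). Without sham replicate 2, edgeR placed 8 members under this adjusted p, all lower after PRATA (against 3.62% of all genes), namely the 4 members of DESeq2 with Kpna4, Nup160, Nxt1 and Xpot. The count of members lower at an unadjusted p under 0.05 was lowest without sham replicate 3, at 7 (13%, against 5.57% of all genes), and it was 11 without PRATA replicate 1 (5.44% of all genes), 11 without PRATA replicate 2 (7.86% of all genes) and 13 without PRATA replicate 3 (7.50% of all genes). Without the pair of PRATA replicate 3 and sham replicate 1 it was 10 (18.5%, against 6.90% of all genes), while 32 members (59.3%, against 21.9% of all genes) then separated downward. The direction of the median was the same throughout, and the median log2 fold change lay between -0.32 without sham replicate 3 and -0.45 without sham replicate 2.

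**Figure D4:**
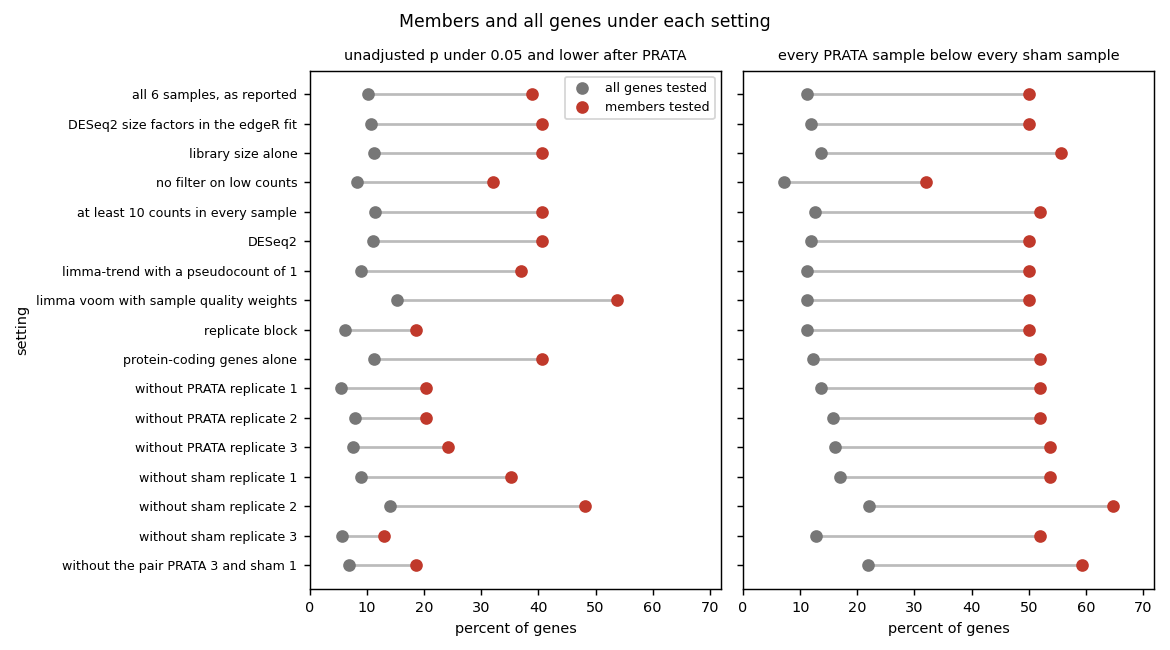
Percent of genes (x axis) that were lower after PRATA at an unadjusted p under 0.05 (left) or had every PRATA sample below every sham sample (right), for the members tested (red) and all genes tested (grey) under each setting. The members' share lies above that of all genes in every setting shown, nearest on the left without sham replicate 3 (13% against 5.57%).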

How the data were processed

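Total RNA of isolated L1-L2 DRG neurons from 3 PRATA and 3 sham samples was sequenced as stranded, ribosomal RNA-depleted paired-end libraries. The deposited table holds raw read counts per gene, which the authors made without normalization. The paper's methods name HISAT2, StringTie and FPKM values, and the submitters' processing notes name STAR 2.7.3a, RSEM and DESeq2. Which tool made the counts, the genome build, the strand setting and the treatment of multiply mapped reads are not given in the sources used here. Genes with near-identical copies (Ran, Ranbp1 and Kpna2 have processed pseudogenes) and the 24 of 55 symbols whose RefSeq span overlaps another gene are therefore uncertain. Gene lengths were not used, so levels are not compared between genes. A planned count of repeats in protein sequences was not made, and protein sequences were not used here.

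Tests were run with edgeR 4.0.16 under R 4.3.3 (filterByExpr, minimum count 10, minimum total 15; TMM factors 0.953 to 1.10; quasi-likelihood test, two-sided, Benjamini-Hochberg adjustment over 14919 genes), limma 3.58.1 and DESeq2 1.42.0. CPM values are TMM-normalized. Standard errors are the log2 fold change over the square root of the test's F. With 3 samples against 3, an exact permutation test cannot give a p under 0.10, so no p is given for separated groups. The fit was also run on simulated counts, and the outcome is not given here. Python 3.11.15 with matplotlib 3.10.9 drew the figures.

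Members and lists were chosen with earlier results of these data known. Named were up to 3 members of each role with the smallest p, members higher at an unadjusted p under 0.05, the members removed by the filter, 11 hub genes and up to 3 listed genes of the same machinery in each direction. Further members are given by their log2 fold change, and Tnpo2 and Nup93 were given in full after their values were seen.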

Additional observations from a re-analysis of the deposited data

How the results depend on the processing

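Counts and medians were recomputed with the size factors of DESeq2, scaling by library size, no filter, a minimum of 10 counts in every sample, the DESeq2 test, limma-trend, limma voom with sample quality weights, protein-coding genes alone, a replicate block and fewer samples. The median log2 fold change of the members kept its sign under each. It moved by less than 0.103, the SD between replicates of the members' median in single samples. The settings share samples, so this comparison does not measure the error of the median. Without a filter the median of all genes was -0.17. With scaling by library size, 11.2% of all genes were lower and 5.60% higher at an unadjusted p under 0.05. With the replicate block, 10 members were lower at an unadjusted p under 0.05 (18.5% of members against 6.08% of all genes). Of the 33 listed machinery genes tested, 2 were lower at that threshold, which is near the share of all genes. With the block, 0 members passed an adjusted p. Same-numbered samples deviated with correlations of -0.35, -0.04 and -0.35 across genes, so the numbers gave no sign of pairing. Without the pair of PRATA replicate 3 and sham replicate 1, 10 members and 2 machinery genes were lower at that threshold, against 6.90% of all genes. Above the sham range then lay 4 members, against 23.2% of all genes. Members at an adjusted p under 0.05 numbered 4 with DESeq2 and 9 with voom. Members above the sham range numbered 1 with DESeq2's size factors and 1 with DESeq2, each against 11.2% of all genes. Leaving out 1 sample at a time gave 7 to 26 members lower and 0 to 1 higher at an unadjusted p under 0.05. The shares of all genes were then 5.44% to 14.1% lower and 3.47% to 13.4% higher. It gave 0 to 8 members at an adjusted p, against 0% to 4.67% of all genes in either direction. Above the sham range lay 1 to 4 members, against 13.5% to 23.6% of all genes. Of the machinery genes, 2 to 10 were lower and 0 to 1 higher at an unadjusted p under 0.05. The cause of these shifts was not tested.

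For 44 named genes, 704 values were recomputed: 665 kept their direction and did not pass an adjusted p under 0.05, 27 kept it and passed, and 12 changed sign. Those that did not pass include Nup210l and the second Nup214 row with DESeq2, which gave them no adjusted p. The named genes whose log2 fold change changed sign were Nup210l (-0.045 to 0.90 with 1 sample left out, below 0 without PRATA replicate 3 or sham replicate 3), Nup210 (-0.13 to 0.70, below 0 without sham replicate 1 or 3, and -0.19 without the pair), Nup88 (-0.17 to 0.069, above 0 without sham replicate 3), Nup50 (-0.15 to 0.065, above 0 without sham replicate 1, and 0.025 without the pair), Nxf1 (-0.40 to 0.11, above 0 without sham replicate 1, and 0.17 without the pair) and Thoc3 (-0.0094 to 0.20, below 0 without PRATA replicate 3, and -0.027 without the pair). Members given in the text by their log2 fold change alone that changed sign over all alternatives were Kpna1 (-0.19 to 0.047), Ipo11 (-0.18 to 0.10), Ipo13 (-0.13 to 0.21), Nup107 (-0.17 to 0.093), the larger Nup214 row (-0.053 to 0.12) and Xpo6 (-0.13 to 0.050). Depth limits Nup37, Nup43, Rcc1, Nxt1, Nup210, Nup210l and the second Nup214 row most, with at most 115 counts in any sample.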

Other observations

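Ratios of counts within one library do not depend on its scaling, and a few were formed after the values above had been seen, as descriptions without a test. Rcc1 had 0.0170, 0.0210 and 0.0230 counts for each count of Rangap1 in the PRATA samples, in order of replicate, and 0.0399, 0.0388 and 0.0399 in the sham samples. Every PRATA sample already lay below every sham sample for Rcc1 and above every sham sample for Rangap1. Their ratio therefore had to separate the groups, and it is no further result. Rcc1 also rests on only 24 to 72 counts per sample. Ran itself had 0.734, 0.801 and 0.833 counts for each count of Rangap1 after PRATA and 1.38, 1.16 and 1.57 after the sham operation. That separation was fixed in the same way. Between the transportin paralogs, Tnpo1 had 0.660, 0.741 and 0.578 counts for each count of Tnpo2 after PRATA and 1.33, 0.883 and 1.52 after the sham operation. The groups did not overlap, which the ranges of both genes had already fixed. Of the importin alpha genes, Kpna4 had 0.744, 0.770 and 0.708 counts for each count of Kpna1 after PRATA and 0.945, 0.976 and 1.18 after the sham operation. No other pair of importin alpha genes was formed. For Ipo5 against Ipo9 the ratios were 4.05, 4.39 and 4.53 after PRATA and 10.6, 5.50 and 9.93 after the sham operation. The ranges of both genes fixed this separation too. In Xpot against Xpo7 the groups overlapped. Sham replicate 2 at 1.16 lay below the PRATA samples at 1.52, 1.54 and 1.49, with 2.72 and 2.90 in sham replicates 1 and 3. In every ratio formed, the first gene already lay below the sham range in all PRATA samples. The ratios therefore restate the values above and add no further result.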
